A study of Homo sapiens with 12 samples.

Results

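Interferon-stimulated genes, the genes that cells switch on when an interferon binds its receptor, were followed across 3 human multiple myeloma cell lines. The members were 42 genes listed by symbol. Probes on the arrays carried the symbol of 41 of them, 60 probes in all, and 40 genes with 53 probes were bright enough to test, out of 11299 genes and 19357 probes tested in the series. STAT2 had no annotated probe and was not analysed here, and the probe of TRIM22, an antiviral ubiquitin ligase, was detected on 0 of the 12 arrays.

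Cells of each line received PRIMA-1Met or DMSO for 8 h, and their RNA was read on Illumina HT-12 bead arrays, with 2 arrays in each of the 6 groups. PRIMA-1Met, also called APR-246, is converted in cells to a product that binds thiols, and it is studied as a reactivator of mutant p53. MM.1S, labelled p53 wild type, received 20 µM. U266, labelled p53 mutant, and 8226R5, labelled p53 null, received 40 µM, and 8226R5 is also written 8266R5 in some labels. Line, p53 status and, for MM.1S, dose cannot be told apart. The wells were seeded in duplicate according to the labels, so the p-values reflect only how far duplicate arrays differ, and that spread may be technical.

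Type I interferons bind a receptor on the cell surface, and the kinases JAK1 and TYK2 then activate STAT proteins. With IRF9 these form a factor that binds the interferon-stimulated response element (ISRE) in the promoters of its targets. Interferon gamma acts at a different element, the gamma-activated site (GAS). The targets include sensors of foreign RNA and DNA, enzymes that make or act on 2-5A, the ubiquitin-like protein ISG15 with its ligases and its protease, and proteins that block virus entry, translation or release.

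The promoters are shown here because this response is defined by an element in the DNA, which was not used to choose the members. RefSeq promoters of build GRCh38.p14 (from 250 bases before to 50 after a start) could be matched to 34 members by symbol, 47 promoters in all. The ISRE core was searched on both strands as GAAA, any 2 bases and GAAA again, and the GAS core as TTCNNNGAA, which is its own reverse complement. The ISRE core lay in 28 of the 47 promoters (59.6%) and in 3.57% of all 35116 promoters. The GAS core lay in 12 of the 47 (25.5%) and in 7.66% of all promoters. A match is a description of these letters and not evidence of a bound factor.

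The following stretches of 60 bases belong to the genes that carry the results below and read 5′ to 3′ on the strand of the gene, with every match to the ISRE core, on either strand, in capitals. In ISG15 and BST2 the capitals are 2 overlapping matches.
ISG15 (chr1:1013365-1013424, + strand): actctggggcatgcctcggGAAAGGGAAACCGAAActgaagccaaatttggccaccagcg
BST2 (chr19:17405720-17405779, - strand): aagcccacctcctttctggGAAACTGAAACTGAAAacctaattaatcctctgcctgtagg
IFIT1 (chr10:89392495-89392554, + strand): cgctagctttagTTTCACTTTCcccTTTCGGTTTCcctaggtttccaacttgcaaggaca
IFIT3 (chr10:89332453-89332512, + strand): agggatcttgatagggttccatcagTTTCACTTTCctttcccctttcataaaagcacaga
IFI44L (chr1:78620350-78620409, + strand): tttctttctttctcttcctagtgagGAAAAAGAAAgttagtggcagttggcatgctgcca
IFI27 (chr14:94110616-94110675, + strand): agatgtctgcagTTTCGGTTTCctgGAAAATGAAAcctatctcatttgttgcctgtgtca
OAS3 (chr12:112938437-112938496, + strand): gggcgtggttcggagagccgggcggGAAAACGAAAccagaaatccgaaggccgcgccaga
EPSTI1 (chr13:42992257-42992316, - strand): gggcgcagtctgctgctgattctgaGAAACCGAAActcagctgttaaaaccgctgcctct
PARP9 (chr3:122564307-122564366, - strand): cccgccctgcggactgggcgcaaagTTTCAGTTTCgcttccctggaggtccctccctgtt
IFITM1 (chr11:314009-314068, + strand): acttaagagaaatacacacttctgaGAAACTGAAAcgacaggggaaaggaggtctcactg

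IRF1 is shown apart because its promoter held a GAS core and no ISRE core, as did those of IFI35, OAS1 and IRF9. IRF1 was among the 25 of 40 members that fell in U266, and it fell in 8226R5, where 37 of 40 were not called. A link between this element and the responses was not tested. The GAS core is in capitals, 124 to 116 bases before the start.
IRF1 (chr5:132490863-132490922, - strand): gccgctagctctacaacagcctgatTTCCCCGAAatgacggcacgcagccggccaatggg

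Each array detected 11815 to 16025 of the 47321 probes, at a detection p under 0.01, fewest on the treated MM.1S arrays. Those arrays were also dim, with a 90th percentile of signal of 213.7 intensity units against 812.4 in MM.1S controls (means, n = 2), and their replicates differed most (SD of the difference 0.377 log2 units, against 0.175 to 0.23 in the other groups). Treated U266 arrays were dimmer than their controls too, at 535.3 against 905.3 units, and treated 8226R5 arrays brighter, at 867.2 against 700.9. The lines were checked against 10 tested plasma cell markers. In DMSO, 10 were detected on both arrays in MM.1S, 9 in U266 and 4 in 8226R5, the latter being SDC1, XBP1, PRDM1 and MZB1. The 6 others, among them TNFRSF17, JCHAIN and IRF4, were not detected on both arrays in 8226R5. In the same cells 7 of 10 tested markers of other cell types were detected on both DMSO arrays, including EPCAM at 13.53 and 13.42, CD3D at 12.13 and 12.07, CD3E, NKG7, ALB, COL1A1 and FCGR3A on the log2 scale. EPCAM, CD3D, CD3E and NKG7 were undetected in the other lines. The values of this line are given under its label, and 6 of the 10 plasma cell markers were not detected behind that label. Without the 8226R5 arrays the fit to the U266 arrays alone called the same numbers of members after the drug, 2 higher and 25 lower. Of all genes it called 11.7% higher and 14.7% lower. The fit to the MM.1S arrays alone called 5 members higher and 14 lower (21% and 44.1% of all genes).

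Before any drug effect, the lines differed in how much of this program they expressed, and MM.1S had the lowest median level. Of the 40 genes, 36 were detected on both DMSO arrays in U266, 37 in 8226R5 and 24 in MM.1S. Of all genes 82.2%, 77.1% and 78.7% were, in the same order. In MM.1S 16 members were undetected on both. The median log2 level of the members was 9.954 in U266, 8.948 in 8226R5 and 7.329 in MM.1S, while the median of all genes was between 8.076 and 8.112. MM.1S was below both other lines for 26 of 40 members, where 15% of all genes were, by limma's moderated test at a Benjamini-Hochberg adjusted p under 0.05 in both comparisons. U266 was above both others for 19 of 40 members, against 19% of all genes, and 8226R5 for 12 of 40, against 22.2%. 8226R5 was below both others for 8 members (19.8% of all genes) and U266 for IRF1 and HERC6 (17.3%). Members undetected in MM.1S passed the detection filter through other groups, so their low calls are no independent support. Likewise MX2 entered the U266 count, and IFITM3, CMPK2 and LGALS3BP the 8226R5 count, detected in that line alone. Among the 17 members detected on all 12 arrays, MM.1S was lower for 12 and higher for 5 against U266 (32.3% and 41.2% of all genes so detected). Against 8226R5 it was lower for 8 and higher for 9 (34.4% and 42.2%). In bulk RNA, fewer cells that express a gene and less RNA in each cell cannot be told apart.

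**Figure D1:**
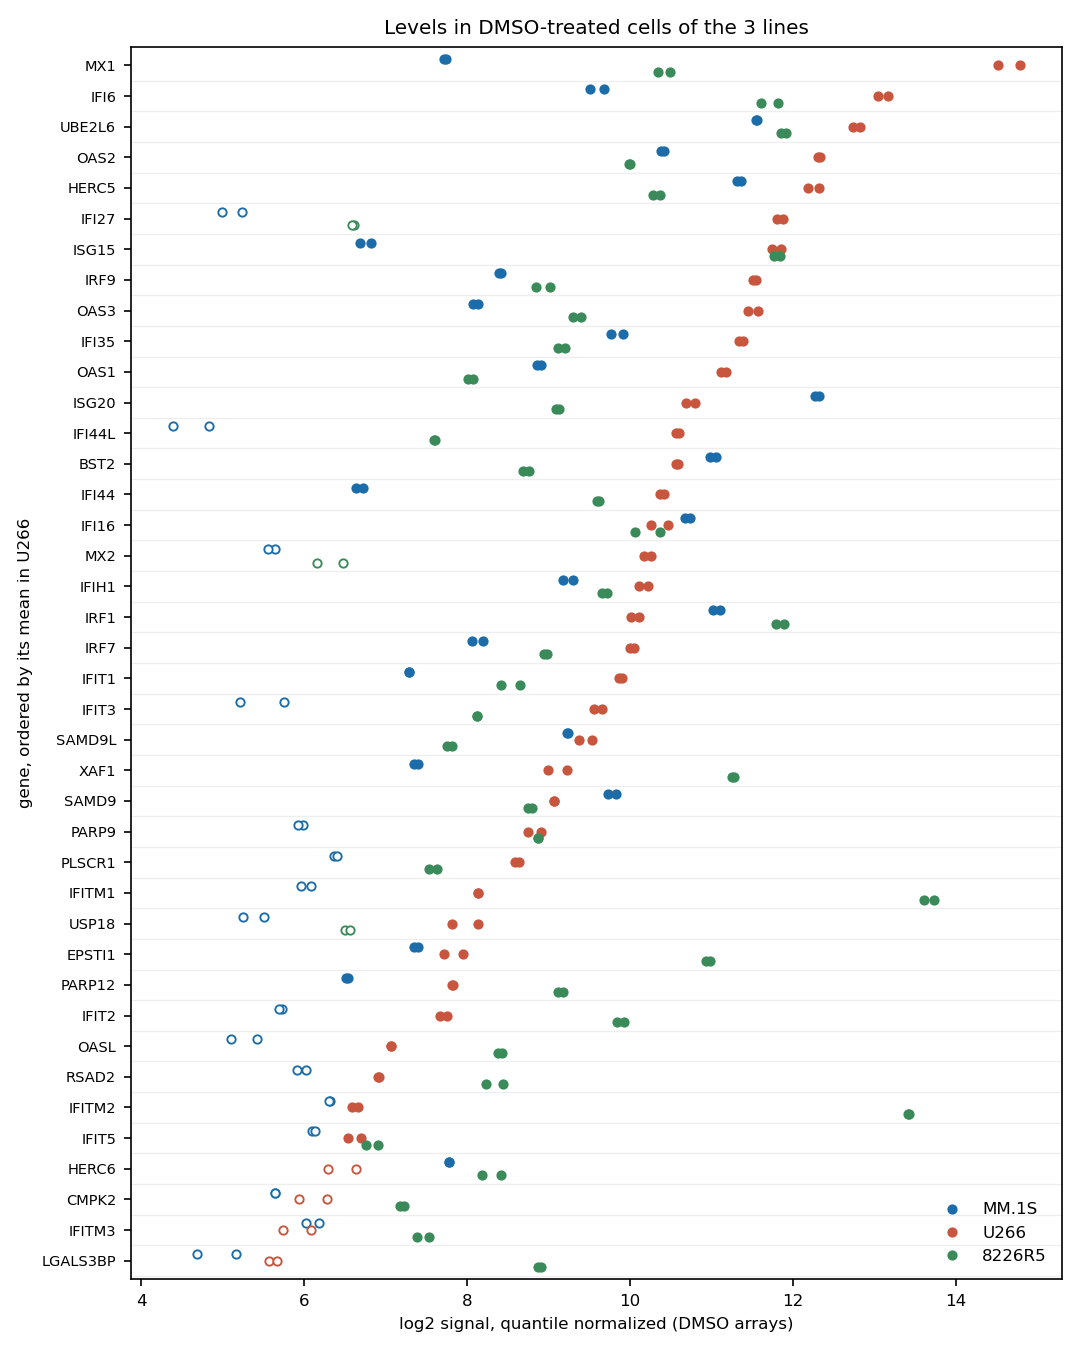
Log2 signal (x axis, quantile normalized) of 40 interferon-stimulated genes (y axis, ordered by their mean in U266) on the 2 DMSO arrays of each line. Each point is an array, and open points belong to a group in which the probe was not detected on both arrays. MM.1S lay below both other lines for 26 genes, including genes undetected in MM.1S, and most open points are those of MM.1S.

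MX1 and IFI27 were far higher in U266 than in the other lines. MX1, a dynamin-like GTPase that traps viral nucleocapsids, had log2 levels of 14.78 and 14.51 in U266, 10.34 and 10.49 in 8226R5 and 7.74 and 7.71 in MM.1S. The 3 lines did not overlap. MM.1S minus U266 was -6.92 ± 0.10 log2 units (SE, n = 2 per group, limma adjusted p = 1.74e-10) and U266 minus 8226R5 was 4.23 ± 0.10 (adjusted p = 1.32e-09).

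Its neighbour MX2, which restricts HIV-1, was at 10.26 and 10.17 in U266 and was not detected on either DMSO array of the other lines. U266 was at least 13.3-fold above MM.1S and at least 12.2-fold above 8226R5. The probe was detected only on U266 arrays and entered the tests through them, so no p-value is given. A bound of this kind sets the undetected group at the lowest level of a detected probe on each array, or at its own value where that was higher.

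IFI27, a small mitochondrial protein, stood at 11.80 and 11.88 in U266. Its probe was at 6.61 and 6.59 in 8226R5, detected on 1 of 2 arrays, and at 4.99 and 5.23 in MM.1S, detected on neither. U266 was at least 41.2-fold higher than MM.1S and 5.24 ± 0.17 log2 units above 8226R5. IFI44L, a GTP-binding protein of the response, was at 10.60 and 10.56 in U266 on its brightest probe and 7.61 and 7.59 in 8226R5. That probe was undetected in MM.1S, where U266 was at least 17.2-fold higher. IFIT3, which partners IFIT1 on viral RNA, followed the same order, with 9.55 and 9.66 in U266 and 8.12 and 8.12 in 8226R5, and U266 was at least 8.75-fold above MM.1S. The second probe of IFI44L differed less. It read 7.84 and 7.52 in U266, 6.63 and 6.44 in 8226R5 and 6.32 and 6.59 in MM.1S, detected on 1 array in each of the last 2 lines.

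The membrane proteins of the IFITM family, which hold up virus fusion, ran the other way. IFITM1 had log2 levels of 13.61 and 13.73 in 8226R5 and 8.13 on both arrays of U266, and it was undetected in MM.1S. 8226R5 was at least 146-fold above MM.1S, and U266 minus 8226R5 was -5.54 ± 0.13 log2 units (limma adjusted p = 1.88e-10 and 9.73e-10). IFITM2 was at 13.42 and 13.41 in 8226R5 and at 6.66 and 6.59 in U266, a difference of U266 minus 8226R5 of -6.79 ± 0.23. In MM.1S IFITM2 was undetected, at least 123-fold lower than in 8226R5. IFITM3 was detected in 8226R5, at 7.53 and 7.38, and in neither other line. These genes are close paralogs whose probes may share signal. LGALS3BP, a secreted glycoprotein, was likewise detected on both DMSO arrays in 8226R5 alone, at 8.87 and 8.91, at least 5.31-fold above MM.1S and at least 5.62-fold above U266. IFIT2, a relative of IFIT1 that curbs translation, was at 9.84 and 9.93 in 8226R5 and 7.66 and 7.75 in U266, and 8226R5 was at least 10.6-fold above MM.1S.

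ISG15, the ubiquitin-like modifier that interferon attaches to other proteins, was low in MM.1S and high in both other lines. Its log2 levels were 6.82 and 6.69 in MM.1S, 11.74 and 11.85 in U266 and 11.76 and 11.84 in 8226R5. MM.1S minus U266 was -5.04 ± 0.09 and MM.1S minus 8226R5 -5.05 ± 0.09, while U266 minus 8226R5 was -0.01 ± 0.09 (limma adjusted p = 0.948). The enzymes that handle it were less uneven. For UBE2L6, its conjugating enzyme, MM.1S minus U266 was -1.22 ± 0.09, and for HERC5, its main ligase, -0.92 ± 0.08. HERC5 in MM.1S was in turn 1.01 ± 0.08 above 8226R5. USP18, the protease that removes ISG15 and also damps the receptor, was detected in DMSO only in U266, at 7.81 and 8.13.

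Not every member was low in MM.1S. ISG20, an exonuclease that degrades viral RNA, was at 12.32 and 12.27 in MM.1S, 10.79 and 10.69 in U266 and 9.09 and 9.13 in 8226R5. BST2, or tetherin, which holds budding virus at the cell surface, was at 11.05 and 10.98, 10.56 and 10.59, and 8.76 and 8.68 in the same order. For both genes the lines ranked in that order without overlap. SAMD9, which restricts poxviruses, and IFI16, a DNA sensor, were the other members above both other lines in MM.1S, 4 in all, where 17.2% of all genes were. IFI16 lost this call against U266 when arrays were scaled to the median of all probes.

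The transcription factors of the pathway did not rank the lines alike. IRF9, which gives the ISRE-binding complex its DNA contact, was at 11.51 and 11.54 in U266, 9.02 and 8.85 in 8226R5 and 8.39 and 8.42 in MM.1S. IRF7, which drives the interferon genes, was at 10.05 and 10.00 in U266, 8.98 and 8.94 in 8226R5 and 8.06 and 8.19 in MM.1S. IRF1, which interferon gamma induces, had another order, with 11.79 and 11.89 in 8226R5, 11.10 and 11.02 in MM.1S and 10.01 and 10.11 in U266. XAF1, a pro-apoptotic gene, also peaked in 8226R5, at 11.25 and 11.27, against 9.23 and 8.99 in U266 and 7.35 and 7.39 in MM.1S.

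Pair by pair, 30 members were lower and 6 higher in MM.1S than in U266, with a median difference of -1.78 log2 units, where 30.9% and 31.1% of all genes were lower and higher (62% called in all, median difference 0.0202). Against 8226R5 the MM.1S counts were 30 lower and 9 higher (33.3% and 32.4% of all genes, 65.7% in all) and the median -1.25, but among the 17 members detected on all 12 arrays, which leaves out those undetected in MM.1S, 8 were lower and 9 higher, with a median of 0.402. U266 was higher than 8226R5 for 23 members and lower for 13 (33.9% and 34.5% of all genes, 68.3% in all), with a median of 0.837. Of the members called and detected in at least one line of a pair, those of MM.1S against 8226R5 and of U266 against 8226R5 were all called the same way under 4 normalizations, and for MM.1S against U266 the exception was IFI16.

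The interferon genes themselves were below detection. All 10 listed genes of types I, II and III had probes and 0 of them were tested, since IFNL1 was detected on 1 array and the others on 0. RNA below detection is not shown to be absent.

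**Figure D2:**
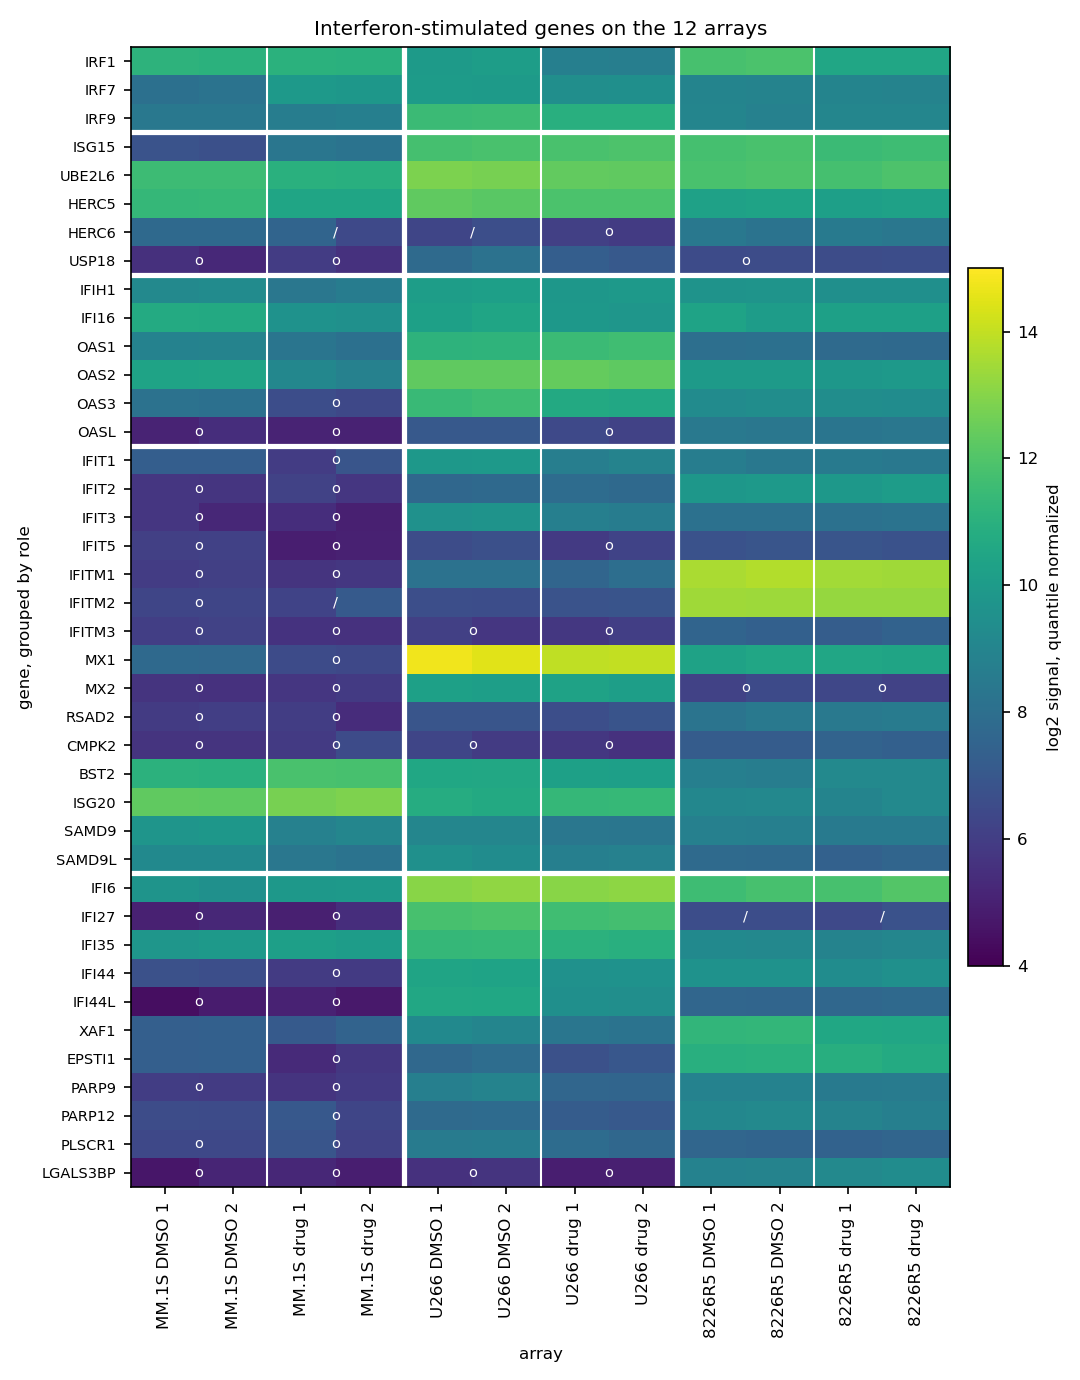
Log2 signal (colour, quantile normalized) of 40 interferon-stimulated genes (rows, grouped by role) on each of the 12 arrays (columns). A circle marks a group in which the probe was detected on neither array and a slash one in which it was detected on 1. Replicate arrays are close within each pair of columns, and the drug moves many U266 rows to a darker shade, such as MX1 from 14.78 and 14.51 to 13.95 and 13.97.

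In U266, PRIMA-1Met lowered most of the program. Of 40 members 25 were lower and 2 higher, by limma's moderated test at an adjusted p under 0.05, while 14.5% of all genes were lower and 12.1% higher (26.5% in all). One of the 25, LGALS3BP, was detected in neither group, so 24 falls and 2 rises concern genes above background. The median change was -0.553 log2 units, against -0.00944 for all genes. Most changes were under 2-fold, and 4 members fell by more than that, where 1.29% of all genes did. Scaled to the median of all probes, 33 members were lower and 0 higher, against 64% and 3.43% of all genes. The medians were then -0.941 and -0.471. Scaled to the probes detected on all 12 arrays, 21 were lower and 7 higher, against 15.1% and 28.6% of all genes, with medians of -0.364 and 0.107. The part of the dimmer treated arrays was not tested.

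Among the transcription factors all 3 fell in U266. IRF1 went from 10.01 and 10.11 in DMSO to 8.74 and 8.70, a fall by 1.34 ± 0.08 log2 units (SE, adjusted p = 7.33e-06). IRF9 went from 11.51 and 11.54 to 10.92 on both arrays (-0.61 ± 0.08, adjusted p = 0.000863), and IRF7 from 10.05 and 10.00 to 9.44 and 9.48 (-0.57 ± 0.08, adjusted p = 0.00117). Treated and DMSO arrays did not overlap for any of these genes.

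PARP9, which partners the ubiquitin ligase DTX3L, had levels of 8.75 and 8.91 in DMSO and 7.64 and 7.57 after the drug. Its fall by 1.23 ± 0.10 log2 units (adjusted p = 5.21e-05) appeared on both of its probes, the other showing -0.87 ± 0.135 (adjusted p = 0.00182). DTX3L itself was at 7.03 and 6.71 in DMSO and below detection in treated cells, at least 1.24-fold lower (adjusted p = 0.0063). IFI44L went from 10.60 and 10.56 to 9.47 and 9.45, a fall by 1.13 ± 0.14 (adjusted p = 0.000645), while its second probe gave -0.42 ± 0.22 and did not pass (adjusted p = 0.201). Its neighbour IFI44 fell by 0.79 ± 0.09.

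The IFIT genes, whose proteins bind viral RNA, did not move as one. IFIT1 fell from 9.86 and 9.90 to 8.71 and 8.90 (-1.07 ± 0.24, adjusted p = 0.0106), a call that was lost without control replicate 1 (adjusted p = 0.0562), control replicate 2 (0.0603) or treated replicate 1 (0.0618). IFIT3 fell from 9.55 and 9.66 to 8.76 and 8.60 (-0.92 ± 0.19, adjusted p = 0.00711), lost without control replicate 2 (0.0518), and its 3 probes all fell. IFIT2, which lies next to IFIT3 on chromosome 10, read 7.66 and 7.75 in DMSO and 7.87 and 7.78 after the drug, a change of 0.12 ± 0.14 (adjusted p = 0.568). IFIT5 passed from 6.54 and 6.70 to below detection, at least 1.05-fold lower, a call lost without control replicate 2 (adjusted p = 0.0725) or treated replicate 1 (0.0513).

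EPSTI1, named for its induction by stromal cells, went from 7.71 and 7.95 to a mean of 6.85 ± 0.20 (SD, n = 2) in U266 (-0.98 ± 0.16, adjusted p = 0.00252), and XAF1 from 9.23 and 8.99 to 8.30 and 8.20 (-0.86 ± 0.13, adjusted p = 0.00157), though its second probe did not pass (-0.26 ± 0.13, adjusted p = 0.19). OAS3, one of the enzymes that make 2-5A to activate RNase L, fell from 11.44 and 11.57 to 10.70 and 10.59 (-0.86 ± 0.10, adjusted p = 0.000353). MX1 fell from 14.78 and 14.51 to 13.95 and 13.97 (-0.69 ± 0.10, adjusted p = 0.00152), but this call was lost when arrays were scaled to the median of the probes detected on all 12 (-0.22, adjusted p = 0.113). The other falls past the threshold in U266 ran from -0.34 for BST2 to -0.83 for PLSCR1, a phospholipid scramblase, whose call was lost without either control replicate or treated replicate 2 (adjusted p = 0.0683, 0.0791 and 0.0942). BST2, at 10.56 and 10.59 in DMSO and 10.24 and 10.22 after the drug, lost its call without control replicate 2 (adjusted p = 0.0564).

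ISG20 and OAS1 were the rises in U266. ISG20 went from 10.79 and 10.69 to 11.34 and 11.37 (0.62 ± 0.09, adjusted p = 0.00127). OAS1, a 2-5A synthetase, went from 11.12 and 11.17 to 11.48 and 11.62 (0.41 ± 0.09, adjusted p = 0.0103), lost without control replicate 1 (0.0678) or treated replicate 2 (0.0717). Neither rise passed the test when arrays were scaled to the median of all probes, where OAS1 turned to -0.05. A second OAS1 probe gave 0.35 ± 0.10 (adjusted p = 0.0277). The last, annotated to the same transcript as the brightest, gave -0.07 ± 0.10 (adjusted p = 0.656). Several bright members gave no call, among them ISG15 (11.74 and 11.85, then 11.86 and 11.94), IFI27 (11.80 and 11.88, then 11.64 and 11.70) and MX2 (10.26 and 10.17, then 10.34 and 10.16). For these 3 genes the changes were 0.11 ± 0.09, -0.17 ± 0.17 and 0.03 ± 0.12.

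Among the remaining members in U266 some passed the test and some did not. OASL, a relative of the 2-5A synthetases, went from 7.07 on both arrays to below detection, at least 1.43-fold lower (adjusted p = 0.00161). USP18 fell from 7.81 and 8.13 to 7.30 and 7.07 (-0.79 ± 0.155, adjusted p = 0.0059), lost without control replicate 2 (0.0523). PARP12, a zinc-finger antiviral protein, fell from 7.81 and 7.83 to 7.22 and 7.08 (-0.67 ± 0.185, adjusted p = 0.0268), a call lost with any 1 of the 4 U266 arrays left out (adjusted p = 0.0648 to 0.127). RSAD2, or viperin, gave -0.16 ± 0.18, IFITM1 -0.35 ± 0.13 and IFITM2 0.21 ± 0.23, none past the threshold. HERC6 was detected on 1 DMSO array, and CMPK2, a mitochondrial nucleotide kinase next to RSAD2, and IFITM3 on none. IFIH1, the RNA sensor MDA5, read 10.11 and 10.22 and then 9.83 and 9.92 (-0.29 ± 0.10, adjusted p = 0.0708).

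By role, the falls in U266 took in 3 of 3 transcription factors, 3 of 5 genes of ISG15 conjugation and 3 of 6 sensors and 2-5A synthetases. They also took in 7 of 15 direct antiviral genes and 9 of 11 others, where 14.5% of all genes fell. The 23 members with an ISRE core in a promoter had a median change of -0.66 in U266, with 15 falls. The 10 others with a promoter had one of -0.502, with 7 falls, against the same 14.5% of all genes. Leaving out control replicate 2 brought the members called in U266 from 27 to 17, and leaving out the other U266 arrays to between 19 and 23. Of the 24 falls of detected members, 20 were called under all 4 normalizations, and those of IFI35, MX1, HERC5 and UBE2L6 were not. The share of all genes called in this way was not computed. Plasma cell markers moved in the same arrays, with 6 of 10 lower and 0 higher, where 14.5% and 12.1% of all genes were. Their summed log2 level went from 15.59 and 15.53 to 14.62 and 14.55, and their part in the result was not tested. Markers of other cell types rose for 4 of 10, where 12.1% of all genes rose, among them ALB, from 6.52 and 6.60 to 9.02 and 9.14. Their summed log2 level went from 9.562 and 9.542 to 10.42 and 10.38, while CD3D, CD3E, NKG7 and EPCAM stayed undetected, and their part was not tested.

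**Figure D3:**
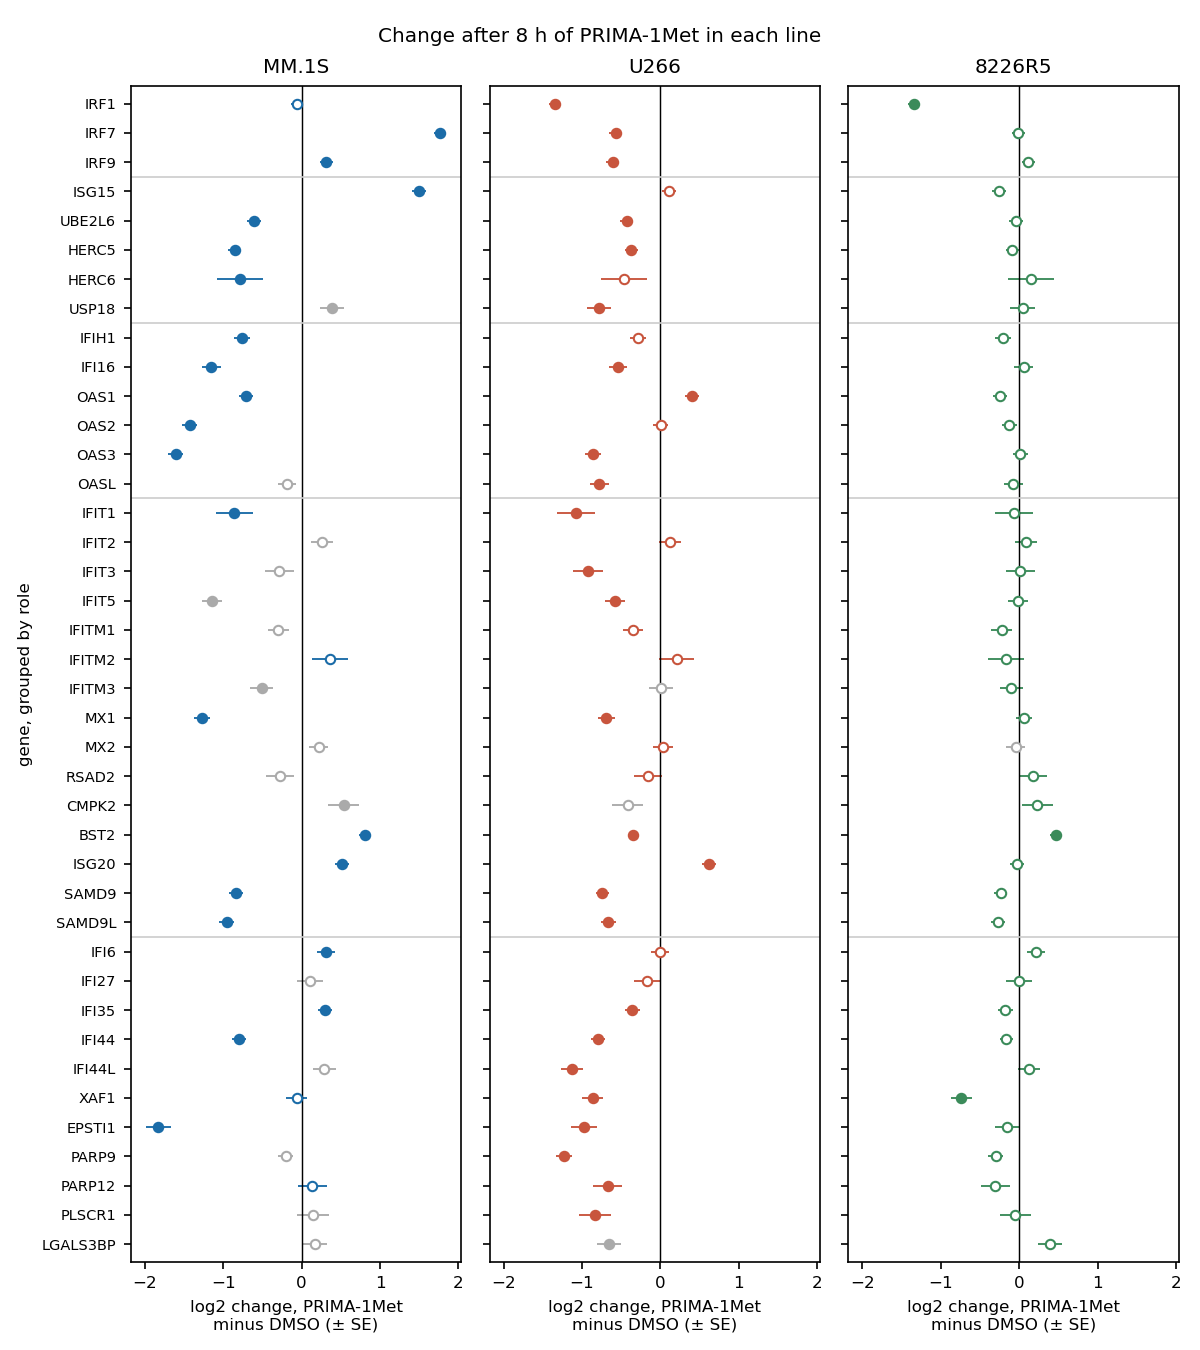
Log2 change after 8 h of PRIMA-1Met against DMSO (x axis, ± SE, n = 2 arrays per group) for 40 interferon-stimulated genes (y axis, grouped by role) in each line. Filled points passed an adjusted p of 0.05 and grey points belong to genes detected in neither group of that line. In U266 25 genes lie to the left and filled, in 8226R5 IRF1, XAF1 and BST2 are filled, and in MM.1S the genes lie on both sides.

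8226R5 at the same 40 µM showed little change in the program. BST2 rose, IRF1 and XAF1 fell, and 37 of 40 members were not called, where 4.13% of all genes were higher and 5.04% lower in this line (9.18% in all). The members were thus called about as often as other genes. The median change was -0.0462 log2 units, against -0.019 for all genes. A second probe of IFI6, a mitochondrial survival gene, also passed the test (0.47 ± 0.09, adjusted p = 0.0129), while its brighter probe gave 0.22 ± 0.11 (adjusted p = 0.284).

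IRF1 went from 11.79 and 11.89 to 10.50 and 10.49 in 8226R5, a fall by 1.34 ± 0.08 log2 units (adjusted p = 4.65e-05). The U266 change minus the 8226R5 change of IRF1 was -0.0017 ± 0.11 (adjusted p = 0.993), which does not show the falls to be equal. In MM.1S IRF1 was at 11.10 and 11.02 in DMSO, and after 20 µM its higher array was at 11.01, with an SD of 0.0085 (n = 2). That change of -0.06 ± 0.08 had an adjusted p of 0.54, and it exceeded the U266 change by 1.29 ± 0.11 (adjusted p = 1.36e-05). Scaled to the median of all probes, IRF1 in MM.1S was called lower, at -1.55, and scaled to the probes detected on all 12 arrays it was called higher, at 0.20.

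XAF1 in 8226R5 fell from 11.25 and 11.27 to 10.54 and 10.49 (-0.74 ± 0.13, adjusted p = 0.00935). Treated and DMSO arrays did not overlap, but with any 1 of the 4 arrays left out the adjusted p was 0.059 to 0.073. Its second probe gave -0.20 ± 0.13 (adjusted p = 0.413). BST2 rose from 8.76 and 8.68 to 9.19 on both arrays (0.47 ± 0.07, adjusted p = 0.00582). The plasma cell markers were lower for 2 of 10 in this line (5.04% of all genes), with a summed log2 level of 11.48 and 11.42 before and 11.27 and 11.35 after. Those of other cell types were higher for 2 of 10 (4.13% of all genes), with a summed level from 14.08 and 13.99 to 14.02 and 13.96. Their part in these changes was not tested.

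The response of U266 was set against that of 8226R5, which had the same dose and time. The drug changed 17 members differently, where 18.9% of all genes differed. Of these members 15 moved more downward in U266 (9.89% of all genes). The other 2 moved more upward (9.03%), ISG20 and, on its brightest probe, OAS1. IFI44L differed by -1.25 ± 0.20 log2 units (adjusted p = 0.00331), IFIT3 by -0.94 ± 0.27 (adjusted p = 0.0383) and PARP9 by -0.925 ± 0.14 (adjusted p = 0.00227). IFI44L in 8226R5 was at 7.61 and 7.59 in DMSO and 7.68 and 7.77 after the drug. Its second probe changed by -0.42 in U266 and 0.14 in 8226R5, neither past the threshold (adjusted p = 0.201 and 0.776). LGALS3BP, which U266 did not express above background, differed by -1.05 ± 0.22. BST2 moved in opposite directions in the lines and differed by -0.82 ± 0.10 (adjusted p = 0.00109). The count of 17 fell to 11 without control replicate 2 of U266, control replicate 2 of 8226R5 or treated replicate 2 of 8226R5.

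In MM.1S, at 20 µM, members were called in both directions. Of 40 members 16 were lower and 9 higher, with 50.3% of all genes lower and 24.1% higher (74.4% in all). Of the 40, 15 members were detected in neither group, and among the 25 others 14 fell, 7 rose and 4 were not called. The shares of all genes were not restricted to detected genes, so they are not matched to these 25. The median change was -0.194, against -0.336 for all genes. That last value is a property of the scaling, since other ways of scaling the dim treated arrays moved it to -1.39 or to 0.362, so changes in MM.1S are also given relative to it. Under all 4 normalizations 11 falls and 2 rises were called in 1 direction, and the share of all genes called so was not computed.

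IRF7 and ISG15 were those rises. IRF7 went from 8.06 and 8.19 to 9.94 and 9.83, a change of 1.77 ± 0.08 log2 units (adjusted p = 8.92e-08), 2.1 above the median of all genes and between 1.64 and 2.26 above it over 4 normalizations. A second IRF7 probe gave 1.635 ± 0.15 (adjusted p = 7.81e-06). ISG15 went from 6.82 and 6.69 to 8.31 and 8.20 (1.501 ± 0.09, adjusted p = 4.27e-07), 1.84 above the median of all genes. Scaled to the median of all probes, these rises were smaller, 0.248 for IRF7 and 0.459 for ISG15 (adjusted p = 0.0194 and 0.00173). Treated MM.1S stayed below the DMSO arrays of both other lines for ISG15. Against U266 the IRF7 change differed by 2.34 ± 0.12 (adjusted p = 6.18e-07) and the ISG15 change by 1.39 ± 0.12 (adjusted p = 1.65e-05), and against 8226R5 by 1.78 ± 0.12 and 1.76 ± 0.12 (adjusted p = 1.72e-06 and 2.9e-06).

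BST2 rose in MM.1S from 11.05 and 10.98 to 11.86 and 11.80 (0.81 ± 0.07, adjusted p = 6.96e-06), and IRF9 from 8.39 and 8.42 to 8.68 and 8.75 (0.32 ± 0.08, adjusted p = 0.00613). Both turned to falls when the arrays were scaled to the median of all probes, BST2 to -0.54 and IRF9 to -1.28. Relative to the median of all genes they stayed positive under the 4 normalizations, by 0.849 to 1.16 for BST2 and by 0.112 to 0.702 for IRF9.

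The falls in MM.1S included 5 of 6 sensors and 2-5A synthetases, with none higher on the brightest probes, where 50.3% of all genes were lower. Of these, OAS1 depended on the probe, since its other tested probes gave 1.15 and -2.055 (limma adjusted p = 4.14e-06 and 9.51e-08). EPSTI1 went from 7.35 and 7.39 to below detection, at least 1.27-fold lower (adjusted p = 5.98e-06). OAS3 went from 8.13 and 8.07 to below detection, at least 2.1-fold lower (adjusted p = 5.61e-07), and MX1 from 7.74 and 7.71, at least 1.62-fold lower (adjusted p = 3.5e-06). OAS2 fell from 10.38 and 10.41 to 9.09 and 8.85 (-1.42 ± 0.10, adjusted p = 1.12e-06) and IFI16 from 10.74 and 10.67 to 9.62 and 9.50 (-1.15 ± 0.12, adjusted p = 1.45e-05). Relative to the median of all genes these 2 genes were at -1.09 and -0.812, and none of their treated arrays overlapped the DMSO arrays.

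OAS2 in MM.1S differed from its response in U266 by -1.43 ± 0.14 (adjusted p = 2.57e-05) on its brightest probe. The size depended on the probe, since others gave -1.37 ± 0.17 (adjusted p = 0.000116) and -0.63 ± 0.24 (adjusted p = 0.0459), and the last, undetected in MM.1S, 0.17 ± 0.35 (adjusted p = 0.707). EPSTI1 and OAS3 differed from 8226R5, where they read 10.93 and 10.98 against 10.88 and 10.72, and 9.30 and 9.40 against 9.39 and 9.34, in their response (adjusted p = 0.00017 and 9.34e-06), but both were undetected in treated MM.1S, so the size of these differences was not measured. IFIT1 fell from 7.28 and 7.29 to below detection, at least 1.19-fold lower (adjusted p = 0.00937), and it read 0.05 (adjusted p = 0.791) when scaled to the probes detected on all 12 arrays. IFI27 and the brightest probe of IFI44L were undetected before and after the drug in MM.1S. The second IFI44L probe was detected on 1 array of each group and gave 0.32 ± 0.22 (adjusted p = 0.225). IFIT5 was undetected in both groups too, at 6.10 and 6.13 and then 4.93 and 5.01. The IFI44L responses of MM.1S and U266 differed by 1.42 ± 0.20 on the brightest probe, which was undetected throughout in MM.1S.

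Over all members the MM.1S response differed from that of U266 for 24, 15 upward and 9 downward (21.5% and 41.2% of all genes, 62.7% in all), and from that of 8226R5 for 20, 7 upward and 13 downward (22.7% and 42.7% of all genes, 65.5% in all). Of the 25 members detected in both MM.1S and U266, 10 fell in both, where 11.1% of all genes detected in both lines did, namely IFI44, IFI16, IFIT1, MX1, OAS3, HERC5, EPSTI1, SAMD9, SAMD9L and UBE2L6. Under 1 normalization IFI44 turned to 0.594 and IFIT1 to 0.05 in MM.1S and MX1, HERC5 and UBE2L6 lost their calls in U266. The U266 calls of IFIT1, IFI16, HERC5 and UBE2L6 were also lost when 1 of some U266 arrays was left out. ISG20 rose in both (7.44% of all genes), a rise not held under all 4 normalizations in either, and IFI35, OAS1, IRF7, IRF9 and BST2 were called in opposite directions (6.86% of all genes), of which the MM.1S rises of IFI35, IRF9 and BST2 and the U266 rise of OAS1 turned under 1 normalization. Across these 25 genes, which are not independent replicates, the changes correlated at r = 0.335 (Spearman 0.452). The plasma cell markers in treated MM.1S were lower for 9 of 10 and higher for 1, where 50.3% and 24.1% of all genes were. Their summed log2 level was 15.34 and 15.36 against 16.41 and 16.53 in DMSO. Markers of other cell types were higher for 3 of 10 (24.1% of all genes), including ALB, from 6.59 and 6.76 to 11.48 and 11.46, and FCGR3A, at least 8.23-fold. Their summed log2 level went from 10.22 and 10.29 to 12.17 and 12.2, with CD3D, CD3E, NKG7 and EPCAM undetected, and the part of these markers and of the dim arrays in the MM.1S changes was not tested.

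**Figure D4:**
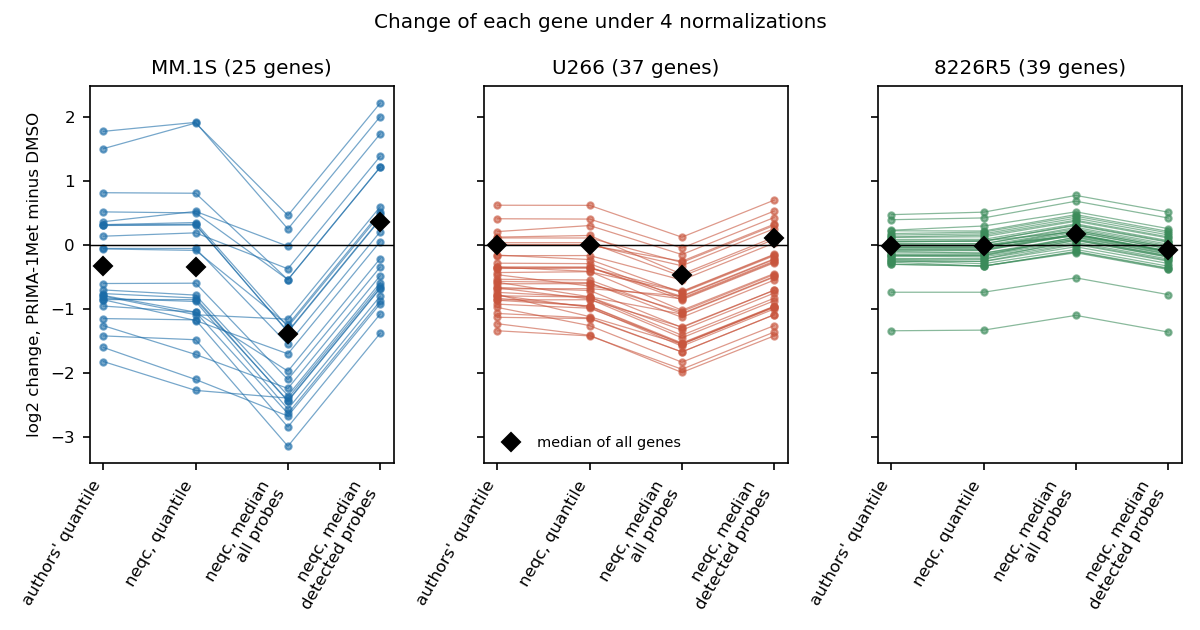
Log2 change with PRIMA-1Met (y axis) of the interferon-stimulated genes detected in either group of a line, 25 in MM.1S, 37 in U266 and 39 in 8226R5, under 4 normalizations (x axis). Each line joins the values of 1 gene, and the diamond is the median of all 11299 genes. In MM.1S that median moves from -0.336 to -1.39 and 0.362 and carries the genes with it, while IRF7 and ISG15 stay above 0.

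Several genes had more than 1 tested probe, 9 in number, and some probes disagreed. For OAS1 in MM.1S the brightest probe gave -0.70, another 1.15 and the last -2.055, each past the threshold (adjusted p = 7.29e-05, 4.14e-06 and 9.51e-08). The brightest and the last carry the same RefSeq transcript in the annotation. XAF1 in MM.1S gave -0.06 ± 0.13 on its brightest probe and 2.71 ± 0.13 on another (adjusted p = 1.4e-07). The direction of OAS1 and XAF1 in MM.1S thus depended on the probe.

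In U266 the 4 probes of OAS2 gave 0.00, -0.74, -0.15 and -1.195, of which -0.74 and -1.195 passed (adjusted p = 0.0125 and 0.0078). IFI6 gave -0.01 on its brightest probe and -0.66 ± 0.09 on the other (adjusted p = 0.000912). Averaging the probes made OAS2 and IFI6 called falls in U266, at -0.52 and -0.33. The probes of IRF7, IFIT3, PARP9 and UBE2L6 had 1 direction each in U266. Counted by probe, 33 of 53 were lower and 3 higher in U266, where 14% and 12% of all probes were (26% in all).

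**Figure D5:**
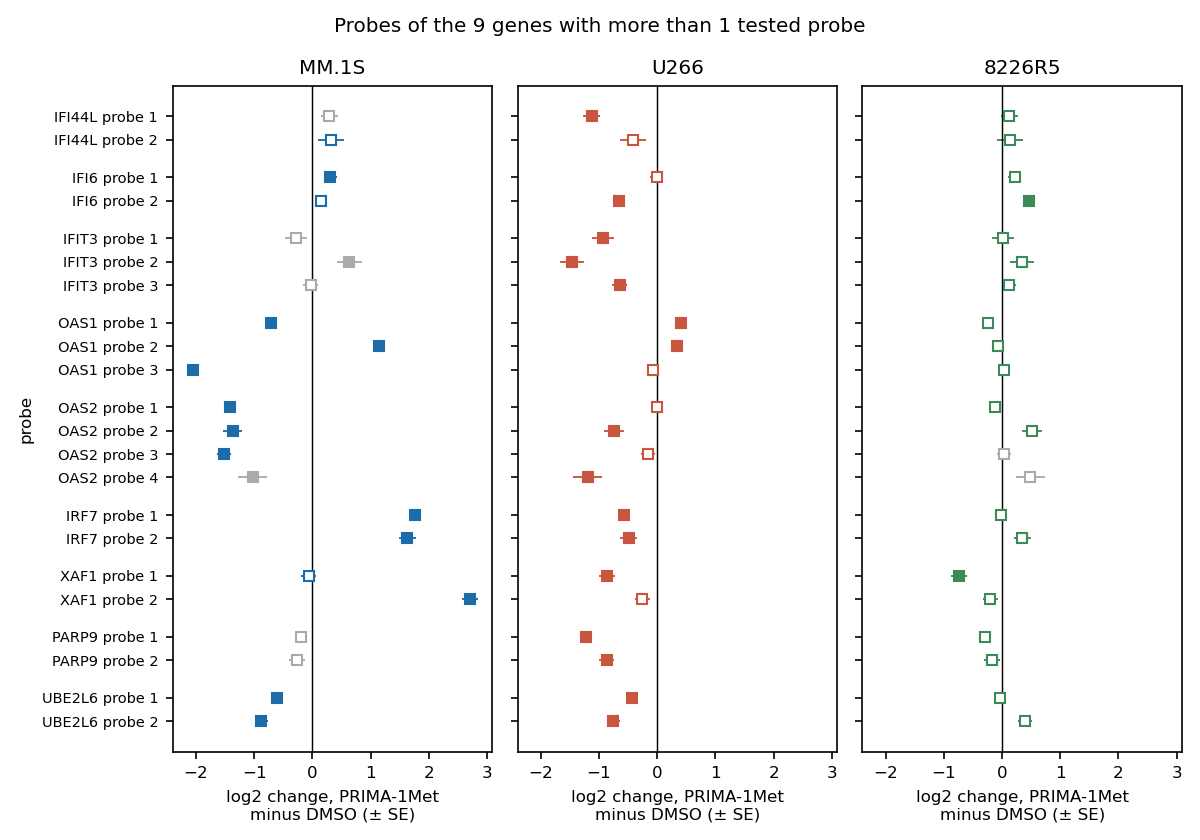
Log2 change with PRIMA-1Met (x axis, ± SE, n = 2 arrays per group) for each tested probe of the 9 genes with more than 1, brightest first, in the 3 lines. Filled squares passed an adjusted p of 0.05 and grey squares mark probes detected in neither group. The OAS1 and XAF1 probes lie on both sides of 0 in MM.1S, while both IRF7 probes lie at 1.77 and 1.635.

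The parts of the pathway upstream of the members were read from lists of receptors and kinases, of sensors that induce interferon, and of further induced genes. For comparison, 14.5% of all genes fell and 12.1% rose in U266, 50.3% and 24.1% in MM.1S, and 5.04% and 4.13% in 8226R5. In U266, of 14 tested receptors, kinases and regulators 8 fell and 1 rose. JAK1, the kinase on both interferon receptors, went from 8.18 and 8.16 to 7.64 and 7.28 (-0.71 ± 0.12, adjusted p = 0.00267). JAK2, which serves the interferon gamma receptor, had a fitted change of -0.57 (adjusted p = 0.0156), but was detected on 1 DMSO array and on no treated one. In MM.1S JAK1 went from 8.71 and 8.64 to below detection, at least 3.12-fold lower (adjusted p = 2.15e-08), and PTPN2, a phosphatase of JAK1, was at least 2.61-fold lower. In 8226R5 JAK1 rose from 7.69 and 7.81 to 8.31 and 8.40 (0.61 ± 0.12, adjusted p = 0.015), the only call among the 14 genes there. JAK1 was therefore lower after the drug in MM.1S and U266 and higher in 8226R5, without overlap of arrays in any line.

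Among 14 tested sensors and inducers, 4 fell and 1 rose in U266. They included IKBKE, a kinase that activates IRF3 (-0.71 ± 0.10, adjusted p = 0.00124), and STING1, the adaptor of cytosolic DNA sensing (-0.48 ± 0.12, adjusted p = 0.014). In MM.1S IRF3 rose from 9.22 and 9.32 to 10.52 and 10.57 (1.28 ± 0.09, adjusted p = 1.23e-06), and MYD88, the adaptor of Toll-like receptors, was at least 1.41-fold lower. In 8226R5 CGAS, the enzyme that makes the ligand of STING1, rose from 7.15 and 7.28 to 8.17 and 7.97 (0.85 ± 0.145, adjusted p = 0.00818) and IKBKE fell by 0.44 ± 0.10 (adjusted p = 0.0304).

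Of 27 further interferon-induced genes that were tested, 10 fell, 1 rose and 1 was called below detection in U266. SP110, a nuclear body protein, fell from 9.03 and 8.82 to 7.76 and 7.63 (-1.23 ± 0.11, adjusted p = 9.08e-05). In MM.1S 13 fell, 3 rose and 1 was called below detection, among them GBP1, a guanylate-binding protein, at least 2.03-fold lower, and PARP14, at least 1.16-fold lower. In 8226R5 2 fell and 1 rose. CXCL10, a chemokine that interferon gamma induces, went from 10.90 and 11.02 to 10.19 and 10.24 there (-0.75 ± 0.09, adjusted p = 0.00171). ZC3HAV1, an antiviral zinc-finger protein, rose from 10.13 and 10.11 to 11.22 and 11.20 (1.09 ± 0.08, adjusted p = 0.000134).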

How the data were processed

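Total RNA of 12 cultures was measured on Illumina HT-12 bead arrays, in 6 groups of 2. The deposited raw table holds probe intensity values with a detection p-value per probe and array, per the file headers. The deposited value table holds the authors' log2 values, quantile normalized, and BeadStudio, lumi and limma are named per the submitters' processing notes. No genome build for the probes was named in the labels or headers read here. Depth has no counterpart on arrays, and the number of arrays limits the precision.

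In the deposited raw table, the intensities and detection p-values of 9 arrays were displaced by 1 position against the probe names. The displacement ran from row 22924 on, 24399 probes each. These columns were moved back into place, and the deposited log2 values were left as they were. Rank correlations between raw intensities and log2 values then rose from between 0.511 and 0.529 to 1. The last of 47322 probes was dropped, and 0 columns were unmatched. The platform annotation gave 1 symbol to 30111 probes, several to 8 and none to 17202.

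The filter kept 19357 probes, those whose detection p-value was below 0.01 on 2 or more arrays. A model of 6 group means (6 residual degrees of freedom) was fitted with limma 3.58.1 in R 4.3.3, with empirical Bayes moderation and Benjamini-Hochberg adjustment over all kept probes at 0.05. A gene was read from its brightest kept probe. A ± after a difference is its standard error in the fit. Alternatives were neqc background correction with other scalings, other detection filters, averaged probes, lines fitted alone, a replicate block and leaving out each array.

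The members and all gene lists were chosen with earlier results of these data known. The text names the members with the largest changes past the threshold whose groups did not overlap (up to 8 in each line), those with the largest differences between lines, a fixed set of pathway genes and up to 2 genes of each pathway list per line. On simulated data for U266, with 19357 probes, a shift of 0.5 log2 units was found in 26.9% of 67 probes. A shift of 1 was found in 83.6% of 67 and a shift of 2 in 100% of 66, and 10 unshifted probes were called. Only these few probes were shifted, while 26% of all probes were called in the measured U266 data. The shares found therefore do not give the sensitivity of the test on the measured data.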

Additional observations from a re-analysis of the deposited data

Results flagged for a closer look

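The drug changed the interferon-stimulated genes differently in the 3 lines, by limma's test of the difference between responses. Between U266 and 8226R5 17 of 40 members differed (42.5%, against 18.9% of all genes). Between MM.1S and U266 24 differed (60%, against 62.7%), and between MM.1S and 8226R5 20 (50%, against 65.5%). The counts for MM.1S were thus not above the share of all genes. For U266 minus 8226R5, the response of IFI44L differed by -1.25, LGALS3BP by -1.05, IFIT3 by -0.94 and PARP9 by -0.925 log2 units, and LGALS3BP was undetected in U266. For MM.1S minus U266, IRF7 differed by 2.34, OAS2 by -1.43, IFI44L by 1.42 and ISG15 by 1.39. The IFI44L values come from its brightest probe, which was undetected in MM.1S. Its second probe changed by 0.32 in MM.1S, -0.42 in U266 and 0.14 in 8226R5, none past the threshold. The other probes of OAS2 gave -1.37, -0.63 and 0.17, the last undetected in MM.1S. For MM.1S minus 8226R5, IRF7 differed by 1.78, ISG15 by 1.76, EPSTI1 by -1.67 and OAS3 by -1.62, but EPSTI1 and OAS3 were undetected on both treated MM.1S arrays, so these 2 values are not measured sizes. MM.1S received 20 µM and the other lines 40 µM, so line and dose cannot be told apart in the comparisons with MM.1S.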

How the results depend on the processing

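Under neqc with median scaling over all probes, 9 members were called in 8226R5 (7 higher, 2 lower, against 25.8% and 4.19% of all genes). Between U266 and 8226R5 34 differed in response, all downward, against 64.4% of all genes. The MM.1S median minus that of all genes was then 0.777, IRF9 turned to -1.281 and BST2 to -0.5443 in MM.1S, and ISG15 to -0.2755 in U266. Under median scaling over probes detected on all 12 arrays, 38 members were called in MM.1S (27 higher, 11 lower, against 51.7% and 30.9% of all genes). In 8226R5 7 were called (2 higher, 5 lower, against 5.52% and 12.6%). Between MM.1S and 8226R5 35 differed in response (26 upward, 9 downward, against 50.2% and 25.4%). That MM.1S median was again 0.777. IFIT5 then turned to 1.067, IRF1 to 0.2028 and IFIT1 to 0.05078 in MM.1S. The cause was not tested. Without a detection filter 17 members were called in U266 (1 higher, 16 lower, against 2.9% and 3.77% of all genes). In 8226R5 1 was called, lower, against 0.444%. Between U266 and 8226R5 5 differed in response, all downward, against 1.85%. The MM.1S median minus that of all genes was then -0.154. Detection on all 12 arrays tests 17 members. This filter called 15 in MM.1S (7 higher, 8 lower, against 30.4% and 54.9% of all genes). In U266 it called 14 (2 and 12, against 22.6% and 22.1%) and in 8226R5 7 (1 and 6, against 10.3% and 13.5%). Its DMSO counts were 17 for MM.1S against U266 (5 higher, 12 lower, against 41.2% and 32.3% of all genes). For MM.1S against 8226R5 the count was 17 (9 higher, 8 lower, against 42.2% and 34.4%, member median 0.402). For U266 against 8226R5 it was 15 (13 higher, 2 lower, against 38.4% and 39.8%). This filter found 11 response differences for U266 against 8226R5 (3 upward, 8 downward, against 20.6% and 16.5%). For MM.1S against U266 it found 13 (7 and 6, against 27.7% and 49.7%). The median change minus that of all genes was -0.383 in U266 and -0.109 in 8226R5. Leaving out 1 array called 17 to 23 members in U266, 23 to 27 in MM.1S and 2 in 8226R5, and 11 to 14 response differences for U266 against 8226R5. Replicate numbers did not pair the samples (correlations of deviations 0.0232, 0.0039 and 0.0123). With a replicate block 2 members were higher and 26 lower in U266 (11.3% and 13.8% of all genes). The counts were then 8 and 17 in MM.1S (23.9% and 50%), and 1 and 2 in 8226R5 (3.6% and 4.27%). Of the counts and medians 131 were labelled unchanged and 25 moved. For counts the label compared the total called and not its direction. Median scaling over all probes thus left the MM.1S count labelled unchanged, at 2 higher and 24 lower against 9 and 16. Of all genes 7.71% were then higher and 74.7% lower. Probes near background, most in treated MM.1S, limit these values.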
